A study of Mus musculus with 9 samples.

Results

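Sodium salicylate was compared with no treatment in LepR+ cells of mice that were 52 weeks old. The comparison rested on 6 RNA-seq libraries, 3 from middle-aged mice treated with sodium salicylate and 3 from middle-aged mice without treatment, and it covered every gene whose normalized counts averaged 10 or more over these 6 libraries. Of the 52459 genes in the table, 15004 met this limit, the last one inside it with a mean of 10.003 and the first one outside it with 9.993. The immunoglobulin genes, 184 of the 15004, are described apart from the other 14820.

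All libraries came from C57B6 mice, with no transgene named for them, and from cells that carry the leptin receptor. These cells were sorted by flow cytometry out of the nonhematopoietic fraction of tibiae and femurs digested with collagenase, so they derived from marrow and from bone-lining cells together. A further 3 libraries from untreated mice of 12 weeks (young) are given as a reference and entered the estimate of the spread. The dose, route and duration of the salicylate treatment, the sex of the mice and the animals behind each replicate are not given in the sources used here, and every p value therefore reflects the spread among these libraries only, which may be technical.

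Salicylate is the active part of aspirin after its acetyl group is lost. It is known to block prostaglandin production by cyclooxygenases weakly, to inhibit the IκB kinase that activates NF-κB, and to activate AMP-activated protein kinase (AMPK) directly. LepR+ stromal cells are the perivascular cells of adult marrow that give rise to bone and fat and that secrete Cxcl12 and stem cell factor (Kitl), which hold blood stem cells and B cell progenitors in their niche.

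Coordinates are those of GRCm38. Values are normalized counts, that is, the reads of a library over its size factor, with gene length left out of account, and they are listed in the order of replicates 1, 2 and 3. A difference is the treated mean minus the untreated mean of log2 of the normalized count plus 1, with its standard error (SE) from limma over all 9 libraries. The untreated libraries held 15142063, 14235155 and 9902613 reads and the treated libraries 18135445, 15343286 and 13460050. Untreated replicate 3 stood apart from the other 5 libraries at 52 weeks, with a size factor of 0.364 against 0.899 to 1.55, a read in 16178 genes against 19462 to 22540, and 32.6% of its reads in immunoglobulin genes. It was the lowest of the 6 libraries for 5581 genes and the highest for 4566 of the 15004 tested. Differences are therefore also given without it. Lepr, the receptor used for the sort, had 57603, 43099.5 and 14455 normalized counts in the untreated and 65748, 59657 and 75958 in the treated libraries, so the groups did not overlap (log2 difference 1.02, SE 0.51, and 0.42 without untreated replicate 3). The pan-leukocyte markers, which the sort should have removed, were read in every library, and their summed level was 15338, 20798 and 34500.4 in the untreated and 16431, 15775 and 13205 in the treated libraries.

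No gene passed the test. Limma called 0 of 15004 genes (0%) at an adjusted p under 0.05, and the smallest adjusted p of limma was 0.496. Without adjustment, 949 genes (6.32%) were higher in treated libraries at a p under 0.05 and 516 (3.44%) were lower. These 1465 genes rested on a spread estimated with the young libraries. On the 6 libraries alone limma gave 761 genes and edgeR 812 at an unadjusted p under 0.05. EdgeR on the recovered reads also called 0 genes, with 1281 at an unadjusted p under 0.05, whereas DESeq2 called 17 higher (0.113%) and 26 lower (0.173%). The 3 treated libraries all lay above the 3 untreated ones for 1206 genes (8.04%), and all lay below them for 899 (5.99%). An exact permutation test of 3 libraries against 3 cannot give a p below 0.1 for a single gene. Over all genes the median difference was 0.07, with 54.1% of genes above 0. This split depended on the scaling, with 79.4% above 0 and a median of 0.57 when libraries were scaled to total reads, and 21.6% and -0.77 when they were scaled to the niche genes, so lists are also described relative to the median of all genes. The spread within the untreated group was wide, with a median SD over genes of 0.75 on the log2 scale, against 0.40 in the treated and 0.39 in the young libraries. The SE takes a single spread for the 3 groups together, so it can understate the error where the untreated libraries vary more. The differences reported from here on are therefore values with their error and not calls.

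Immunoglobulin genes, which B lineage cells transcribe and plasma cells transcribe in bulk, had a lower mean share of reads in treated libraries. They took 3.25%, 16.5% and 32.6% of the reads in the untreated libraries and 1.53%, 1.55% and 8.33% in the treated libraries. The mean was 17.5% ± 14.7 (SD, n = 3) against 3.80% ± 3.92 (SD, n = 3), 4.59-fold apart, and the groups overlapped because treated replicate 3 lay above untreated replicate 1 (exact two-sided permutation test, p = 0.2). In the young libraries the share was 0.107% to 0.479%, below every library at 52 weeks. Without untreated replicate 3 the means were 9.88% and 3.80% (exact permutation p = 0.5). In bulk libraries fewer cells of a type and less RNA per cell cannot be told apart. Of the 184 genes tested, 120 had a difference below 0, with a median of -0.71, and 13 (7.07%, against 5.99% of all genes) were lower without overlap and 3 higher (1.63% against 8.04%). The median was -0.37 without untreated replicate 3, and edgeR without that library gave 0.54, so the direction of the median gene was not stable while the share of reads kept its direction.

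Most of these reads came from the constant region genes. Ighm, the heavy chain of IgM (chr12:113418558-113422730, minus strand), had 184862, 1123037 and 3827807 normalized counts in the untreated and 74308, 89983 and 434536 in the treated libraries. Untreated replicates 2 and 3 were the highest of the 6, and treated replicate 3 lay above untreated replicate 1 (log2 difference -2.70, SE 1.07). Igkc, the constant region of the kappa light chain (chr6:70726435-70726966, plus strand), had 110943, 865755 and 3319013 normalized counts in the untreated and 52093, 47392 and 334076 in the treated libraries (log2 difference -2.86, SE 1.20) and ordered the libraries in nearly the same way. Ighg3, the heavy chain of IgG3, separated the groups with 2311, 1406 and 2393 normalized counts in the untreated and 793, 411 and 889 in the treated libraries (log2 difference -1.58, SE 0.45), and it had 1 read over the 3 young libraries. Iglc3, a constant region of the lambda light chain, separated them as well, with 869, 3027 and 3939 normalized counts in the untreated and 213, 100.5 and 650.1 in the treated libraries (log2 difference -3.17, SE 0.85). Without untreated replicate 3 the differences were -1.67 for Ighm, -1.72 for Igkc, -1.44 for Ighg3 and -2.75 for Iglc3.

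Single variable segments took up different parts of the repertoire in different libraries. Igkv15-103, a kappa segment (chr6:68437440-68437925, plus strand), had 14918, 234416 and 612953 normalized counts in the untreated and 196, 15062 and 11560.1 in the treated libraries (log2 difference -5.31, SE 1.75, and -4.19 without untreated replicate 3). It made up 28.4%, 72.6% and 44.4% of the kappa variable reads in the untreated libraries and 61.2% in treated replicate 2, while Igkv6-20 led treated replicate 1 with 30.0% and Igkv14-126 led treated replicate 3 with 19.3%. Igkv15-103 also led young replicates 1 and 3 with 51.1% and 48.1%, and Igkv12-46 led young replicate 2 with 17.6%. Ighv7-1, a segment of the heavy chain, had 4451, 67476 and 87090.0 normalized counts in the untreated and 4.52, 5176 and 4830.1 in the treated libraries, highest in untreated replicates 2 and 3 and lowest in treated replicate 1, as Igkv15-103 was. Igkv16-104 followed another order, with 3901, 97.9 and 202109 normalized counts in the untreated and 34.2, 3.09 and 15023 in the treated libraries, so that untreated replicate 2 had little of it. Igkv4-53 had 173, 33.4 and 336 normalized counts in the untreated and 0, 0 and 1.03 in the treated libraries, 354 reads against 1, and was called lower by DESeq2. Igkv4-86 was also lower in all treated libraries, with 449.7, 337 and 4033 normalized counts in the untreated and 188, 17 and 0 in the treated libraries. Ighv14-1 went the other way, with 20.6, 0 and 2.75 normalized counts in the untreated and 146, 87.3 and 155 in the treated libraries (log2 difference 4.87, SE 1.16, and 4.77 without untreated replicate 3), and had no read in the young libraries. Rearranged segments of near-identical sequence can share reads, so the split between neighbouring segments is uncertain.

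**Figure D1:**
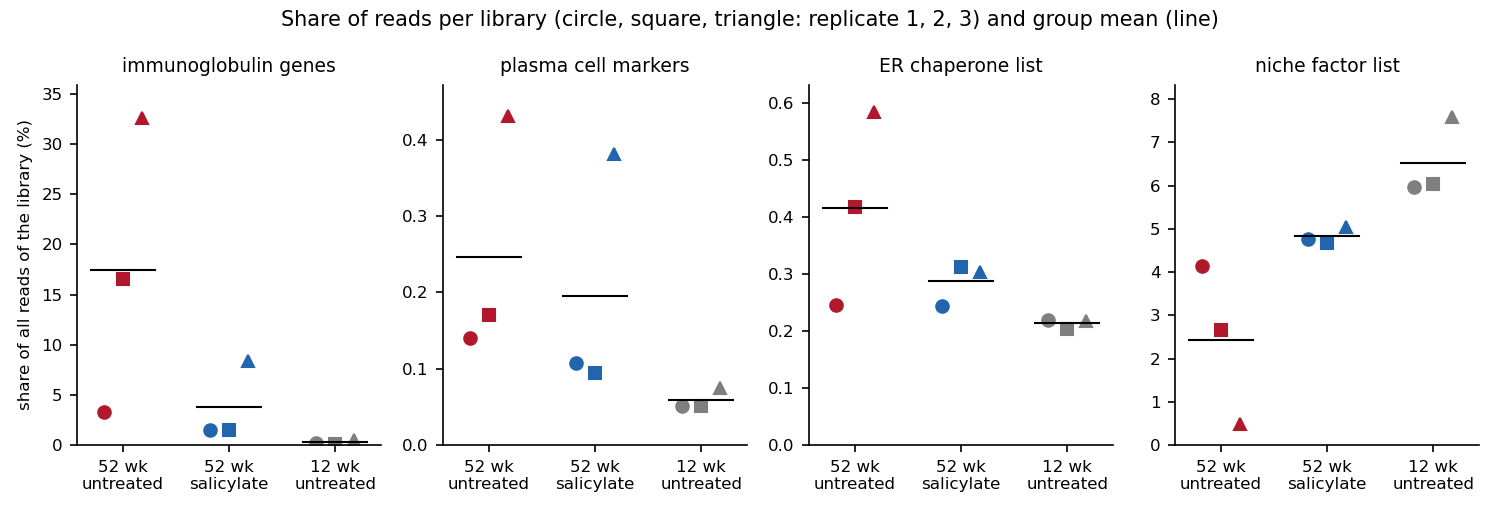
Share of all reads (%) taken by the immunoglobulin genes, the plasma cell markers, the ER chaperone list and the niche factor list in each of the 9 libraries, with the mean of each group as a line. Untreated replicate 3 (red triangle) had the highest share of the first 3 lists, 32.6% for the immunoglobulin genes, and the lowest share of niche factors, 0.475%, whereas the 3 treated libraries had 4.67% to 5.04% of niche factors.

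Markers of plasma cells were lower on average in treated libraries. All 11 markers had a difference below 0, with a median of -1.58, but none separated the groups, and 3 of 11 were lower at an unadjusted p under 0.05 (limma), against 3.44% of all genes. Their summed level was 18113, 26965 and 117387 in the untreated and 12607, 11251 and 52761 in the treated libraries. Treated replicate 3 lay above untreated replicates 1 and 2 in this sum, of which Jchain (39736 there) was the largest part. Xbp1, the transcription factor that sets up the secretory apparatus of plasma cells, had 2608, 7763 and 27857 normalized counts in the untreated and 1816, 2664 and 4353 in the treated libraries (log2 difference -1.58, SE 0.68, and -0.70 without untreated replicate 3). Irf4, a regulator of plasma cell identity, had 313, 1451 and 5182 normalized counts in the untreated and 272, 252 and 619 in the treated libraries (log2 difference -1.93, SE 0.81, and -0.95 without untreated replicate 3). Slamf7, a surface receptor of plasma cells, had 392, 1316 and 5856 normalized counts in the untreated and 226, 214 and 824 in the treated libraries (log2 difference -2.08, SE 0.82, and -1.07 without untreated replicate 3). Jchain, which joins IgM and IgA into polymers, had 11557, 8536 and 51162 normalized counts in the untreated and 7306, 5434 and 39736 in the treated libraries, and its difference turned from -0.56 to 0.23 without untreated replicate 3. For all 11 markers that library was the highest of the 6, and without it the median was -0.57 with 9 of 11 below 0. Relative to the median of all genes, the list lay at -1.65, and at -2.52 to -0.52 over 28 alternatives.

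B cell markers showed the same direction, with 11 of 12 below 0 and a median of -1.05, and without untreated replicate 3 8 were (median -0.78). Cd79b, the signaling chain of the B cell receptor, separated the groups with 284, 482 and 2522 normalized counts in the untreated and 138, 148 and 259.8 in the treated libraries (log2 difference -2.004, SE 0.71, and -1.08 without untreated replicate 3), and DESeq2 called it lower. Blnk, an adaptor of the same receptor, had 272, 269 and 1876 normalized counts in the untreated and 98.7, 114 and 385 in the treated libraries (log2 difference -1.66, SE 0.73, and -0.73 without untreated replicate 3). Rag1, the recombinase of lymphocyte progenitors, had 254, 100.1 and 308 normalized counts in the untreated and 38.1, 103 and 146 in the treated libraries, and untreated replicate 2 fell within the treated range.

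Genes of the endoplasmic reticulum (ER) that fold and export secreted proteins were lower on average in treated libraries, all 13 of the list, with a median difference of -1.23 against 0.07 over all genes. The unfolded protein response raises these genes when secretory load in the ER is high. Of the 13 genes, 8 were lower at an unadjusted p under 0.05 (limma), against 3.44% of all genes, 0 separated the groups without overlap, and untreated replicate 3 was the highest of the 6 libraries for 13. Creld2, an ER-resident protein released under stress (chr15:88819646-88826683, plus strand), had 366, 2029 and 5359 normalized counts in the untreated and 191, 338 and 596 in the treated libraries (log2 difference -2.23, SE 0.77, and -1.35 without untreated replicate 3), and DESeq2 called it lower. Hsp90b1, the Hsp90 of the ER, had 9876, 17418 and 43149 normalized counts in the untreated and 9272, 11570.5 and 12856 in the treated libraries (log2 difference -0.81, SE 0.44, and -0.24 without untreated replicate 3). Hyou1, a large chaperone that resists low oxygen, had 722, 1595 and 4236 normalized counts in the untreated and 681, 785 and 693 in the treated libraries (log2 difference -1.24, SE 0.49, and -0.58 without untreated replicate 3). In each of these, untreated replicate 1 lay near the treated libraries and replicates 2 and 3 above them. Herpud1, which takes part in the degradation of misfolded ER proteins, had 1521, 3739 and 8365 normalized counts in the untreated and 1114, 1092 and 2572 in the treated libraries (log2 difference -1.31, SE 0.53, and -0.70 without untreated replicate 3). Without untreated replicate 3, 12 of 13 were below 0, with a median of -0.52 and 1 at an unadjusted p under 0.05. Relative to all genes the list lay at -1.30, and at -2.04 to -0.52 over 28 alternatives. Untreated replicate 3 was also the highest library in plasma cell markers and immunoglobulin share. In untreated replicate 2 and treated replicate 3, the summed ER list was 66037 and 42029 and the immunoglobulin share 16.5% and 8.33%. The summed plasma cell markers were 26965 and 52761 in these libraries, and Jchain made up most of the latter sum. The part of the plasma cell markers and of the immunoglobulin share in the difference was not tested.

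The promoters of several of these genes carry the ER stress element, to which ATF6 binds together with NF-Y. Its letters, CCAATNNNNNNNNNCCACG, were searched on both strands of 32851 RefSeq promoters (250 bases before to 50 after the start, GRCm38.p6), and 39 promoters (0.119%) of 37 genes held them. Of the ER list, 11 of 13 genes had a promoter in the table and 4 held the element. They are shown on the strand of the gene, with the element, or its reverse complement, in capitals.
Hspa5, chr2:34772010-34772058 on the plus strand: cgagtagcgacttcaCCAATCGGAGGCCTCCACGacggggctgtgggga
Hsp90b1, first copy, chr10:86705623-86705671 on the minus strand: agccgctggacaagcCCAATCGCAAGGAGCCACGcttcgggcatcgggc
Hsp90b1, second copy, chr10:86705518-86705566 on the minus strand: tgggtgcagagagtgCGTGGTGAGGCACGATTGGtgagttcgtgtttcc
Pdia6, chr12:17266476-17266524 on the plus strand: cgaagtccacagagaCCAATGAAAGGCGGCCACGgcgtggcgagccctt
Creld2, chr15:88819505-88819553 on the plus strand: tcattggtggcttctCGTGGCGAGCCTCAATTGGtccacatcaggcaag
The element began 65 bases before the start of Hspa5, 98 before that of Pdia6 and 126 before that of Creld2, where it lies in reverse. Hsp90b1 held it at 212 bases and, in reverse, at 107. Pdia6, a protein disulfide isomerase, and Hspa5, the main Hsp70 of the ER, differed by -0.33 (SE 0.34) and -0.53 (SE 0.35), against -2.23 for Creld2, and Pdia6 turned to 0.11 without untreated replicate 3. Over all genes with the element, 16 were tested, and 10 of these had a difference below 0, with a median of -0.35. A match of letters is a description and shows no binding.

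In the amino acid response the transcription factor ATF4 raises transporters and synthetic enzymes when amino acids are short. Transcripts of a list of its targets, which also holds Atf4 itself, were lower on average in treated libraries. All 13 genes had a difference below 0 (median -0.56, from -1.91 to -0.03). Of these, 5 were lower without overlap and 3 at an unadjusted p under 0.05 (limma), against 5.99% and 3.44% of all genes. Slc7a5, the light chain of the large neutral amino acid transporter, had 222, 517 and 1128 normalized counts in the untreated and 95.5, 137 and 183 in the treated libraries (log2 difference -1.91, SE 0.54, and -1.34 without untreated replicate 3), and DESeq2 called it lower. Its partner Slc3a2, the heavy chain of the same transporter, had 1567, 1705 and 11875 normalized counts in the untreated and 967, 874 and 2371 in the treated libraries (log2 difference -1.33, SE 0.67, and -0.37 without untreated replicate 3), so treated replicate 3 lay above untreated replicates 1 and 2. Asns, asparagine synthetase, separated the groups with 518, 697 and 974 normalized counts in the untreated and 346, 295 and 322 in the treated libraries (log2 difference -1.14, SE 0.35, and -0.91 without untreated replicate 3). Psat1, an enzyme of serine synthesis, separated them with 248, 328 and 737 normalized counts in the untreated and 196, 202 and 172 in the treated libraries (log2 difference -1.04, SE 0.40, and -0.59 without untreated replicate 3). The young libraries held 197, 255 and 107 of Asns, below every treated library, and 170.5, 106 and 87.6 of Slc7a5, which overlapped with the treated libraries. Without untreated replicate 3 the median of the list was -0.26, with 10 of 13 below 0. That library was the highest of the 6 for 11 of 13 genes, and it was also the highest in plasma cell markers and in immunoglobulin share, whose part in the difference was not tested. Relative to all genes it lay at -0.85 to -0.25 over 28 alternatives.

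Genes of the pathways that salicylate is known to act on were compared next. Ptgs1 and Ptgs2, the cyclooxygenases 1 and 2, were named because the drug acts on their enzymes. Ptgs1 had 273, 349 and 567 normalized counts in the untreated and 334, 362 and 222 in the treated libraries (log2 difference -0.34, SE 0.36, and -0.05 without untreated replicate 3). Ptgs2 had 651, 682 and 110.0 normalized counts in the untreated and 389.8, 899 and 237 in the treated libraries (log2 difference 0.25, SE 0.67), and the difference turned to -0.61 without untreated replicate 3. Neither separated the groups. The prostaglandin list as a whole had 13 of 15 genes above 0 and a median of 0.55, which was 0.04 without untreated replicate 3. At an unadjusted p under 0.05, 4 of 15 were higher, against 6.32% of all genes, and 2 without untreated replicate 3. Ptger2, the EP2 receptor for prostaglandin E2 (chr14:44988195-45003820, plus strand), had 1.71, 22.2 and 8.25 normalized counts in the untreated and 45.2, 81.9 and 103 in the treated libraries (log2 difference 3.14, SE 0.87, and 3.21 without untreated replicate 3). The 3 treated libraries lay above the 3 untreated ones and also above the young libraries, which had 20.4, 10.8 and 20.2. Ptgis, prostacyclin synthase, separated the groups with 66.8, 28.9 and 2.75 normalized counts in the untreated and 75.5, 87.3 and 181 in the treated libraries (log2 difference 2.44, SE 0.87, and 1.25 without untreated replicate 3), both below the young level of 345, 253 and 338. Ptger3, the EP3 receptor, had 91.7, 75.6 and 44 normalized counts in the untreated and 168, 91.2 and 256 in the treated libraries (log2 difference 1.22, SE 0.44, and 0.91 without untreated replicate 3), and the groups overlapped only through treated replicate 2. Ptgfr, the receptor for prostaglandin F2 alpha, had 983, 972 and 850.0 normalized counts in the untreated and 939.5, 1606 and 1622 in the treated libraries, and treated replicate 1 fell within the untreated range. Of the whole list 2 genes were higher and 0 lower without overlap, against 8.04% and 5.99% of all genes.

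NF-κB genes as a group showed no direction. Of 18 subunits, inhibitors and kinases, 9 were above 0 and 9 below (median 0.06), and the list lay at -0.14 to 0.09 relative to all genes over 28 alternatives. Without overlap 1 gene was higher and 3 were lower, against 8.04% and 5.99% of all genes. Chuk, which encodes the kinase IKK alpha (chr19:44073335-44107480, minus strand), was lower in all treated libraries with 427, 406 and 454 normalized counts in the untreated and 272, 323 and 273 in the treated libraries (log2 difference -0.57, SE 0.23, and -0.53 without untreated replicate 3). Rel, the c-Rel subunit, was lower in all of them with 1618, 2525 and 1719 normalized counts in the untreated and 1229, 1442 and 1354 in the treated libraries (log2 difference -0.52, SE 0.24, and -0.59 without untreated replicate 3). Ikbke, the noncanonical kinase IKK epsilon, was higher in all of them with 42, 37.8 and 27.5 normalized counts in the untreated and 129, 48.7 and 81.1 in the treated libraries (log2 difference 1.16, SE 0.61, and 0.99 without untreated replicate 3). Nfkbiz, a nuclear inhibitor-like protein, had 4950.3, 4319 and 949 normalized counts in the untreated and 4252, 4116 and 4474 in the treated libraries, and its difference of 0.65 became -0.11 without untreated replicate 3. The inflammatory genes that NF-κB activates had 14 of 19 above 0 with a median of 0.74, and 0 of them passed an unadjusted p under 0.05. This median was 0.10 without untreated replicate 3, which was the lowest library for 13 of 19. Cxcl10, an interferon-inducible chemokine, had 5561, 6033 and 1103 normalized counts in the untreated and 3696, 5157 and 4468 in the treated libraries, and its difference turned from 0.40 to -0.40 without untreated replicate 3. Il1b, the cytokine interleukin 1 beta, had 461, 725 and 286 normalized counts in the untreated and 761, 971 and 611 in the treated libraries. Mmp13, a collagenase of bone remodeling, had 1957, 2464 and 391 normalized counts in the untreated and 2090.1, 3457 and 3023 in the treated libraries (log2 difference 1.18, SE 0.57, and 0.35 without untreated replicate 3). Icam1, an adhesion molecule, had 859, 848 and 369 normalized counts in the untreated and 1119.6, 1146 and 738 in the treated libraries (log2 difference 0.61, SE 0.36, and 0.20 without untreated replicate 3). None of these 4 genes separated the groups.

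**Figure D2:**
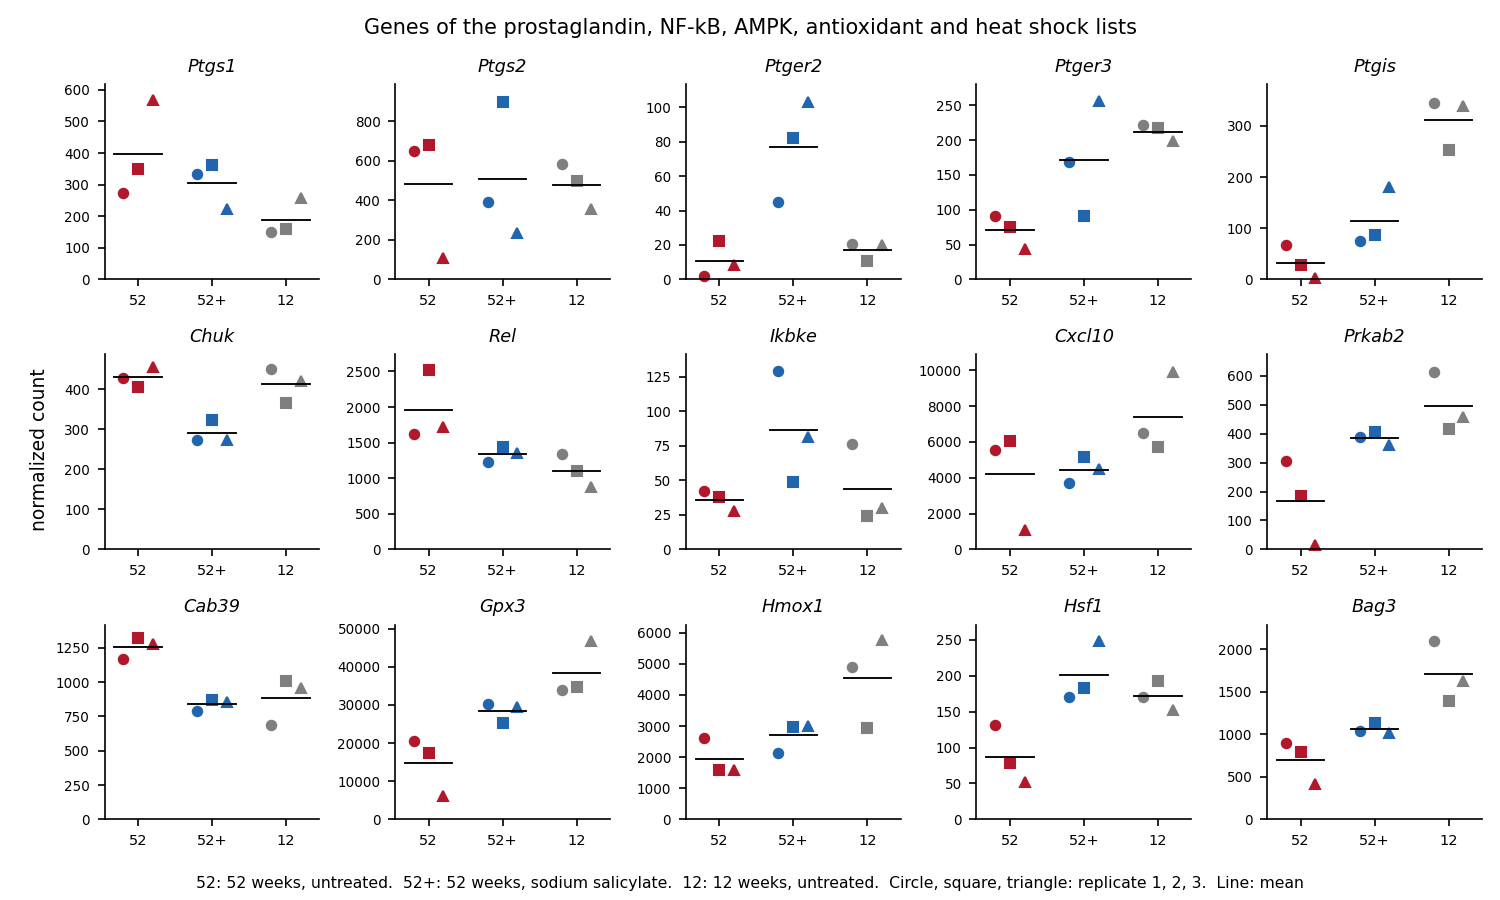
Normalized counts of 15 genes of the prostaglandin, NF-κB, AMPK, antioxidant and heat shock lists in the 9 libraries, on linear axes from 0, with the mean of each group as a line. Ptger2 lay above the untreated and young libraries in all 3 treated libraries, Chuk, Rel and Cab39 lay below all 3 untreated ones, and Ptgs1 and Ptgs2 overlapped.

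AMPK, the energy sensor that salicylate activates as a protein, had 9 of 10 genes above 0, with a median of 0.39, or 0.07 without untreated replicate 3. Prkab2, a regulatory beta subunit, was higher in all treated libraries with 305, 185 and 13.8 normalized counts in the untreated and 388, 406 and 359 in the treated libraries (log2 difference 2.03, SE 0.86, and 0.69 without untreated replicate 3). Prkaa1, a catalytic alpha subunit, had 1119.6, 715 and 206 normalized counts in the untreated and 904, 1038 and 1103 in the treated libraries and overlapped. Cab39, a scaffold of the upstream kinase LKB1, was lower in all treated libraries with 1168, 1319 and 1274 normalized counts in the untreated and 789, 872 and 851 in the treated libraries (log2 difference -0.58, SE 0.21, and -0.57 without untreated replicate 3). Untreated replicate 3 lay between untreated replicates 1 and 2 in Cab39. Antioxidant genes under Nrf2 were divided, 9 above and 9 below 0. Gpx3, a secreted glutathione peroxidase, separated the groups with 20508, 17344 and 6228 normalized counts in the untreated and 30338, 25228 and 29352 in the treated libraries (log2 difference 1.11, SE 0.43, and 0.58 without untreated replicate 3), and Hmox1, heme oxygenase, overlapped with 2624, 1576 and 1601 normalized counts in the untreated and 2140.4, 2977 and 3012 in the treated libraries. In the heat shock list (10 of 13 above 0, median 0.27, or -0.09 without untreated replicate 3), the master regulator Hsf1 was higher in all treated libraries with 131, 77.9 and 52.3 normalized counts in the untreated and 171, 182 and 249 in the treated libraries (log2 difference 1.28, SE 0.39, and 0.96 without untreated replicate 3). Its target Bag3, a cochaperone, was higher in all of them with 898, 795 and 413 normalized counts in the untreated and 1035, 1132 and 1018 in the treated libraries (log2 difference 0.67, SE 0.30, and 0.33 without untreated replicate 3). Hspa8, the constitutive cytosolic Hsp70, had 9346, 8685 and 5331 normalized counts in the untreated and 9101, 11152 and 6872 in the treated libraries, and its difference turned from 0.23 to -0.02 without untreated replicate 3. Within a library, where the size factor has no part, the mean log2 level of the ER list minus that of the heat shock list was 0.57, 2.09 and 4.64 on the log2 scale in the untreated and 0.52, 0.56 and 1.55 in the treated libraries.

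The factors by which LepR+ stroma sustains blood stem cells were higher on average in treated libraries, all 16 of the list, with a median difference of 0.88. In 7 of 16 the 3 treated libraries lay above the 3 untreated ones, and 3 of 16 were higher at an unadjusted p under 0.05 (limma), against 8.04% and 6.32% of all genes. Cxcl12, the chemokine that retains blood stem cells, had 301989.8, 233671 and 75974 normalized counts in the untreated and 317049.7, 310499 and 408305 in the treated libraries (log2 difference 0.97, SE 0.77, and 0.37 without untreated replicate 3), below the 465789, 454524 and 570245 of the young libraries. Pdgfra, a receptor that marks mesenchymal progenitors, had 4199, 3156 and 1411 normalized counts in the untreated and 4822, 4524 and 4913 in the treated libraries (log2 difference 0.84, SE 0.34, and 0.38 without untreated replicate 3). Pdgfrb, a receptor of perivascular cells, had 4379, 3333 and 589 normalized counts in the untreated and 4909, 6742 and 4665 in the treated libraries (log2 difference 1.39, SE 0.59, and 0.49 without untreated replicate 3). Foxc1, a transcription factor that maintains these stromal cells, had 1404, 1822 and 666 normalized counts in the untreated and 1749, 2159.8 and 2695 in the treated libraries and overlapped through treated replicate 1 and untreated replicate 2. The separation was narrow against untreated replicate 1, and untreated replicate 3 was the lowest library for 16 of 16 genes. Without it 15 of 16 stayed above 0, with a median of 0.28. Relative to all genes the list lay at 0.80, and at 0.27 to 1.09 over 28 alternatives. The immunoglobulin share of reads was highest where the niche factors were lowest, and its part in the difference was not tested. Niche factors took 4.15%, 2.66% and 0.475% of all reads in the untreated and 4.78%, 4.67% and 5.04% in the treated libraries.

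Genes of the Notch pathway, through which neighbouring cells restrain differentiation, were mixed, with 14 of 20 above 0 and a median of 0.44, or 0.12 without untreated replicate 3. Among the receptors, Notch3 had 942, 979 and 226 normalized counts in the untreated and 1023, 1246 and 1493 in the treated libraries (log2 difference 1.06, SE 0.47, and 0.37 without untreated replicate 3). Notch4 had 18, 13.3 and 5.5 normalized counts in the untreated and 32.9, 34.8 and 57.5 in the treated libraries (log2 difference 1.77, SE 0.65, and 1.33 without untreated replicate 3). Both lay above all untreated libraries, while Notch2 overlapped with 2302, 2164 and 875 normalized counts in the untreated and 2272, 2446 and 2347 in the treated libraries. Heyl, a transcriptional repressor downstream of Notch3, separated the groups with 430.0, 321 and 24.8 normalized counts in the untreated and 705, 958 and 618 in the treated libraries (log2 difference 2.29, SE 0.84, and 1.01 without untreated replicate 3), and in the young libraries it had 775, 933 and 480.5. Of the whole list 5 genes were higher and 2 lower without overlap, against 8.04% and 5.99% of all genes. Wnt pathway genes had 24 of 26 above 0 and a median of 0.80, which was 0.25 without untreated replicate 3. Among them were secreted antagonists of Wnt. Sfrp4 had 8647, 5891 and 1928 normalized counts in the untreated and 11853, 9239.8 and 11942 in the treated libraries (log2 difference 1.24, SE 0.45, and 0.62 without untreated replicate 3). Sfrp2 had 100.2, 81.2 and 13.8 normalized counts in the untreated and 121, 104 and 267 in the treated libraries (log2 difference 1.60, SE 0.70, and 0.72 without untreated replicate 3). Both separated the groups, and Sfrp1 overlapped with 2028, 1504 and 269.6 normalized counts in the untreated and 2103, 1967 and 3333 in the treated libraries.

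BMP and TGF-beta genes had 20 of 23 above 0 (median 0.75, or 0.11 without untreated replicate 3). Id1, an immediate target of BMP signaling that inhibits differentiation, separated the groups with 87.4, 83.4 and 38.5 normalized counts in the untreated and 154, 172 and 149.9 in the treated libraries (log2 difference 1.26, SE 0.40, and 0.88 without untreated replicate 3), and the treated libraries overlapped with the young ones at 143, 153 and 156. Tgfb3, a ligand, separated them with 221, 164 and 24.8 normalized counts in the untreated and 259, 299 and 327 in the treated libraries (log2 difference 1.59, SE 0.67, and 0.62 without untreated replicate 3). Among the insulin-like growth factor genes, 10 of 10 were above 0 (median 0.88), and without untreated replicate 3 9 were (median 0.29). Igf1, the growth factor itself, was higher in all treated libraries with 3309.9, 3316 and 1667 normalized counts in the untreated and 4771, 4205 and 5930.0 in the treated libraries (log2 difference 0.90, SE 0.29, and 0.57 without untreated replicate 3). Igfbp7, a binding protein, was higher in all of them with 8209, 7088 and 2124 normalized counts in the untreated and 8720.5, 9582 and 10947 in the treated libraries (log2 difference 0.96, SE 0.44, and 0.35 without untreated replicate 3), and Igfbp5, another binding protein, overlapped with 80456, 57014 and 12926 normalized counts in the untreated and 80018, 74116 and 89604 in the treated libraries. Of 14 angiogenic factors 12 were above 0 (median 0.80, or 0.14 without untreated replicate 3, which was the lowest library for 11 of 14). Fgf7, a growth factor for epithelium, had 2243, 1179 and 888 normalized counts in the untreated and 2319, 2464 and 3065 in the treated libraries (log2 difference 0.97, SE 0.33, and 0.67 without untreated replicate 3). Pgf, placental growth factor, had 206, 138 and 35.8 normalized counts in the untreated and 236, 363 and 304 in the treated libraries (log2 difference 1.55, SE 0.55, and 0.81 without untreated replicate 3). Both lay above all untreated libraries, and in both untreated replicate 1 was the untreated library nearest to them.

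Matrix genes were higher on average in treated libraries. All 17 interstitial matrix genes tested had a difference above 0 (median 0.91), 7 without overlap and 5 at an unadjusted p under 0.05, against 8.04% and 6.32% of all genes. Mgp, an inhibitor of calcification, had 11245, 7221 and 3469 normalized counts in the untreated and 11972, 15969.7 and 16465 in the treated libraries (log2 difference 1.16, SE 0.37, and 0.70 without untreated replicate 3), against 8106, 8539 and 7863 in the young libraries. Fbn1, fibrillin of the microfibrils, had 7760, 6349 and 1683 normalized counts in the untreated and 9887, 9007 and 10073 in the treated libraries (log2 difference 1.14, SE 0.47, and 0.46 without untreated replicate 3). Bgn, the proteoglycan biglycan, had 43822, 37525 and 12601 normalized counts in the untreated and 48647, 46861 and 60916 in the treated libraries (log2 difference 0.91, SE 0.47, and 0.35 without untreated replicate 3). The 3 genes separated the groups, and Lum, lumican, overlapped with 4104, 2258 and 1408 normalized counts in the untreated and 4131, 3291 and 5223 in the treated libraries. The basement membrane list had 13 of 13 above 0 and a median of 1.13. Col4a2, a chain of type IV collagen, separated the groups with 929, 769.8 and 179 normalized counts in the untreated and 1247, 1139.8 and 1091 in the treated libraries (log2 difference 1.20, SE 0.49, and 0.45 without untreated replicate 3). Lamb2, a laminin chain, separated them with 524, 588 and 99 normalized counts in the untreated and 715, 739 and 899 in the treated libraries (log2 difference 1.31, SE 0.55, and 0.49 without untreated replicate 3). Nid1, a linker of laminin and collagen IV, overlapped with 4649, 4719 and 1111 normalized counts in the untreated and 4567, 5464 and 6794 in the treated libraries. Untreated replicate 3 was the lowest library for all of the 17 and 13 genes, and without it the medians were 0.34 and 0.23.

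Complement genes made by stroma had 8 of 8 above 0 (median 0.83), 4 without overlap and 4 at an unadjusted p under 0.05, against 8.04% and 6.32% of all genes. Without untreated replicate 3, the lowest library for 8 of 8, 7 of 8 were above 0 with a median of 0.33, and 2 passed an unadjusted p under 0.05. Relative to all genes the list lay at 0.31 to 1.20 over 28 alternatives. Serping1, the C1 inhibitor, had 25133, 20011 and 6079 normalized counts in the untreated and 30341, 26230.4 and 31533 in the treated libraries (log2 difference 1.01, SE 0.48, and 0.38 without untreated replicate 3). C2, a protease of the classical pathway, had 809, 534 and 184 normalized counts in the untreated and 918, 996 and 1181 in the treated libraries (log2 difference 1.25, SE 0.44, and 0.64 without untreated replicate 3). C4b, its partner in the C3 convertase, had 7818, 5425 and 2165 normalized counts in the untreated and 9009.6, 8456 and 8825 in the treated libraries (log2 difference 0.96, SE 0.39, and 0.43 without untreated replicate 3). All of them lay above the untreated libraries, while C1s1, a protease of the C1 complex, overlapped with 3559, 2305 and 1012 normalized counts in the untreated and 3487, 3606 and 3919 in the treated libraries. Untreated replicate 1 was the untreated library nearest to the treated ones in all 4.

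Genes of bone and fat formation were compared as well. All 15 osteogenic genes tested were above 0 (median 0.99, or 0.19 without untreated replicate 3), 4 of them without overlap, against 8.04% of all genes. Sp7, the transcription factor osterix, had 119.9, 165 and 46.8 normalized counts in the untreated and 316, 185 and 259 in the treated libraries (log2 difference 1.33, SE 0.45, and 0.81 without untreated replicate 3). Ibsp, bone sialoprotein, had 7849, 7611 and 2047 normalized counts in the untreated and 13209, 10256 and 10761 in the treated libraries (log2 difference 1.19, SE 0.45, and 0.55 without untreated replicate 3), against 21397, 25751 and 21274 in the young libraries. Phex, an endopeptidase of bone mineralization, had 4155, 3735 and 1084 normalized counts in the untreated and 4180.2, 5894 and 6336 in the treated libraries (log2 difference 1.07, SE 0.43, and 0.45 without untreated replicate 3), above the 2614, 2725 and 2763 of the young libraries. The adipogenic list had 9 of 12 above 0 (median 0.62), but without untreated replicate 3, the lowest library for 10 of 12, the median was 0.06 with 8 of 12 above 0. Scd1, a fatty acid desaturase, separated the groups with 1732, 1266 and 734 normalized counts in the untreated and 1938, 2111 and 2968 in the treated libraries (log2 difference 0.97, SE 0.33, and 0.63 without untreated replicate 3). Cebpa, a transcription factor of fat cells, separated them with 774, 576 and 231 normalized counts in the untreated and 837, 831 and 942 in the treated libraries (log2 difference 0.89, SE 0.37, and 0.38 without untreated replicate 3). Apoe, the lipoprotein component apolipoprotein E, separated them with 5171, 4164 and 850.0 normalized counts in the untreated and 6714, 5477 and 6820.4 in the treated libraries (log2 difference 1.26, SE 0.54, and 0.44 without untreated replicate 3). Cartilage genes had a median of 0.99 over 11 genes, which turned to -0.29 without untreated replicate 3. Sox5, a cartilage transcription factor, was higher in all treated libraries with 112, 37.8 and 49.5 normalized counts in the untreated and 139, 153 and 135 in the treated libraries (log2 difference 1.24, SE 0.50, and 1.11 without untreated replicate 3), whereas Comp, a cartilage matrix protein, overlapped with 1069, 444 and 132 normalized counts in the untreated and 745, 702 and 778 in the treated libraries.

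**Figure D3:**
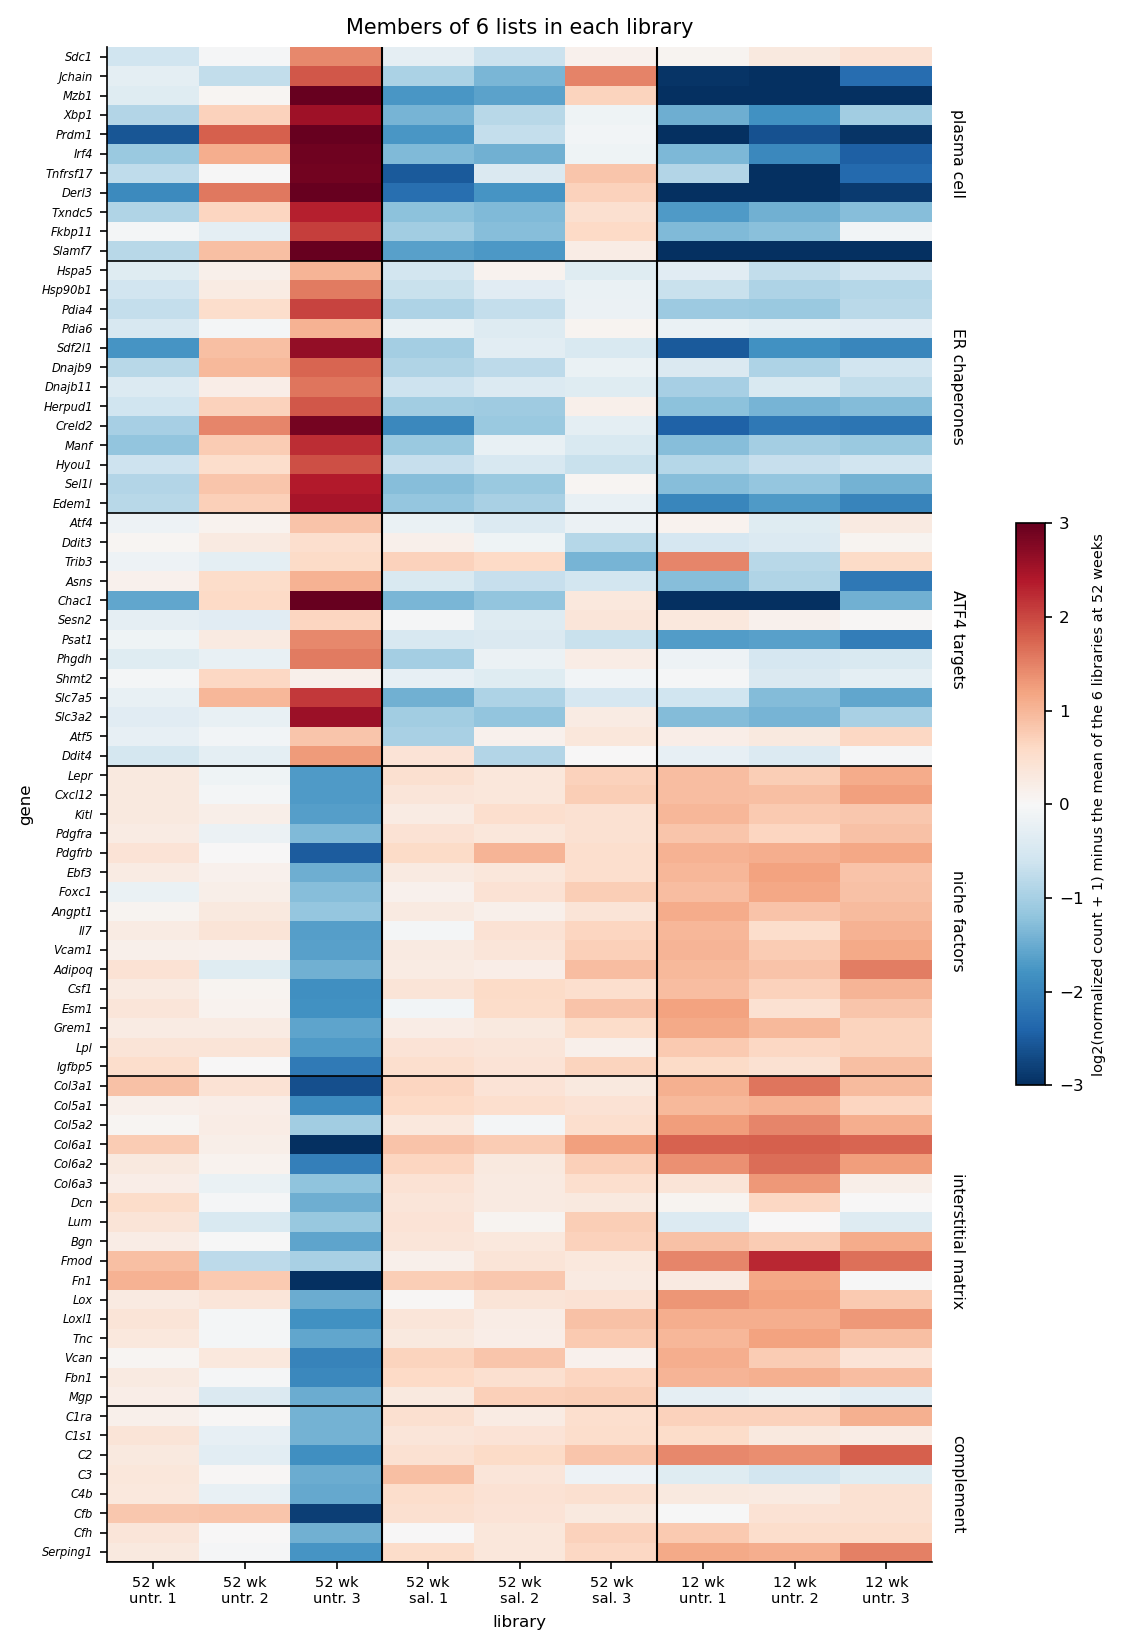
Each row is a gene of 1 of 6 lists and each column a library, and the color is log2 of the normalized count plus 1 minus the mean of the 6 libraries at 52 weeks, from -3 to 3. The column of untreated replicate 3 is red in the plasma cell, ER chaperone and ATF4 lists and blue in the niche, matrix and complement lists, and the differences between the treated libraries and untreated replicates 1 and 2 are smaller.

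Housekeeping machinery was lower on average in treated libraries. Of 80 genes for cytosolic ribosomal proteins, 77 had a difference below 0 (median -0.47), 25 were lower without overlap, against 5.99% of all genes, and 12 were lower at an unadjusted p under 0.05, against 3.44%. Rps26 had 2710.3, 2940.0 and 5056 normalized counts in the untreated and 2108, 1943 and 2316 in the treated libraries (log2 difference -0.70, SE 0.26, and -0.42 without untreated replicate 3). Rpl22 had 2518, 2744 and 5334 normalized counts in the untreated and 2348, 1531 and 2191 in the treated libraries (log2 difference -0.74, SE 0.30, and -0.40 without untreated replicate 3). Both are proteins of the ribosome that separated the groups, and untreated replicate 3 was the highest in both. That library was the highest of the 6 for 74 of 80. Without it 74 of 80 were below 0 with a median of -0.19, and 2 of 80 were lower at an unadjusted p under 0.05. Ribosomal protein genes have many processed pseudogenes that share reads with them. Nuclear genes of oxidative phosphorylation had 70 of 78 below 0 (median -0.38), and without untreated replicate 3, the highest library for 57 of 78, 61 were (median -0.19). Ndufa1, a subunit of complex I, had 582, 1208 and 3494 normalized counts in the untreated and 389.8, 362 and 692 in the treated libraries (log2 difference -1.55, SE 0.54, and -0.86 without untreated replicate 3). The protein genes of mitochondrial DNA had 11 of 11 below 0 (median -0.62, or -0.20 without untreated replicate 3). Among them mt-Nd3, another subunit of complex I, had 1311, 2436 and 3945 normalized counts in the untreated and 1151, 1068 and 1534 in the treated libraries, and untreated replicate 1 fell within the treated range. Glycolytic genes were divided, 10 above and 9 below 0.

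Cell division genes were lower on average in treated libraries, 21 of 22 with a median of -0.48, and without untreated replicate 3 the median was -0.43 with 21 of 22 below 0. Without overlap 4 were lower, against 5.99% of all genes. Mcm4, a subunit of the replicative helicase, had 1263, 1314 and 1007 normalized counts in the untreated and 756, 764 and 850.4 in the treated libraries (log2 difference -0.59, SE 0.23, and -0.71 without untreated replicate 3). Ccna2, cyclin A2, had 1343, 1424 and 1397 normalized counts in the untreated and 1096, 1043 and 606 in the treated libraries (log2 difference -0.65, SE 0.27, and -0.64 without untreated replicate 3). Pcna, the clamp of DNA polymerase, had 1159, 1407 and 1406 normalized counts in the untreated and 934, 1066 and 868 in the treated libraries (log2 difference -0.47, SE 0.22, and -0.42 without untreated replicate 3). These 3 genes separated the groups, while Mki67, the proliferation marker Ki-67, overlapped with 4456, 5431 and 3518 normalized counts in the untreated and 4784, 4426 and 1769 in the treated libraries. Treated replicate 3 had the lowest value of Mki67 and Ccna2. Relative to all genes the list lay at -0.55, and at -0.67 to -0.32 over 28 alternatives. Markers of some blood-forming cells had the same direction. Erythroid markers had 10 of 11 below 0 (median -0.35, or -0.31 without untreated replicate 3), pan-leukocyte markers 8 of 9 (median -0.45, or -0.25) and neutrophil markers 10 of 12 (median -0.36, or -0.17), and their part in the difference was not tested. Other blood cell markers went the other way. Mast cell and basophil markers had 4 of 4 above 0 (median 1.72, or 0.23 without untreated replicate 3). Megakaryocyte markers had 5 of 6 above 0 (median 0.57, or 0.10 without that library).

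Among other cell types, Car1, a carbonic anhydrase of erythroid progenitors, was lower in all treated libraries with 3536, 3407 and 3037 normalized counts in the untreated and 2150.1, 2153 and 1973 in the treated libraries (log2 difference -0.67, SE 0.24, and -0.73 without untreated replicate 3). Ltf, lactoferrin of neutrophil granules, was lower in all of them with 5809, 5307 and 5909 normalized counts in the untreated and 5245, 4788 and 2621 in the treated libraries (log2 difference -0.49, SE 0.27, and -0.46 without untreated replicate 3), and S100a9, a calcium-binding protein of neutrophils, overlapped with 57282, 60858 and 98445 normalized counts in the untreated and 64483, 55752 and 37543 in the treated libraries. Monocyte and macrophage markers had 8 of 12 below 0 (median -0.39, or -0.21 without untreated replicate 3). Ly6c2, a surface protein of monocytes that plasma cells also carry, had 2931, 17511 and 70109 normalized counts in the untreated and 2333, 1848 and 8086 in the treated libraries (log2 difference -2.23, SE 0.94, and -1.13 without untreated replicate 3). The part of either cell type in this difference was not tested. Mural cell markers had 6 of 7 above 0 (median 1.33, or 0.82 without untreated replicate 3). Des, desmin of pericytes and muscle, was higher in all treated libraries with 122, 37.8 and 11 normalized counts in the untreated and 131, 131 and 280.4 in the treated libraries (log2 difference 2.14, SE 0.73, and 1.30 without untreated replicate 3). Endothelial markers had 10 of 11 above 0 (median 0.85), but the median was -0.08 without untreated replicate 3. Ptprb, a phosphatase of endothelial cells, was higher in all treated libraries with 78, 7.79 and 2.75 normalized counts in the untreated and 124, 93.5 and 111 in the treated libraries (log2 difference 2.996, SE 0.93, and 2.06 without untreated replicate 3). Of the T and NK cell markers 3 of 11 reached a mean of 10, and of the skeletal muscle markers 1 of 7.

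**Figure D4:**
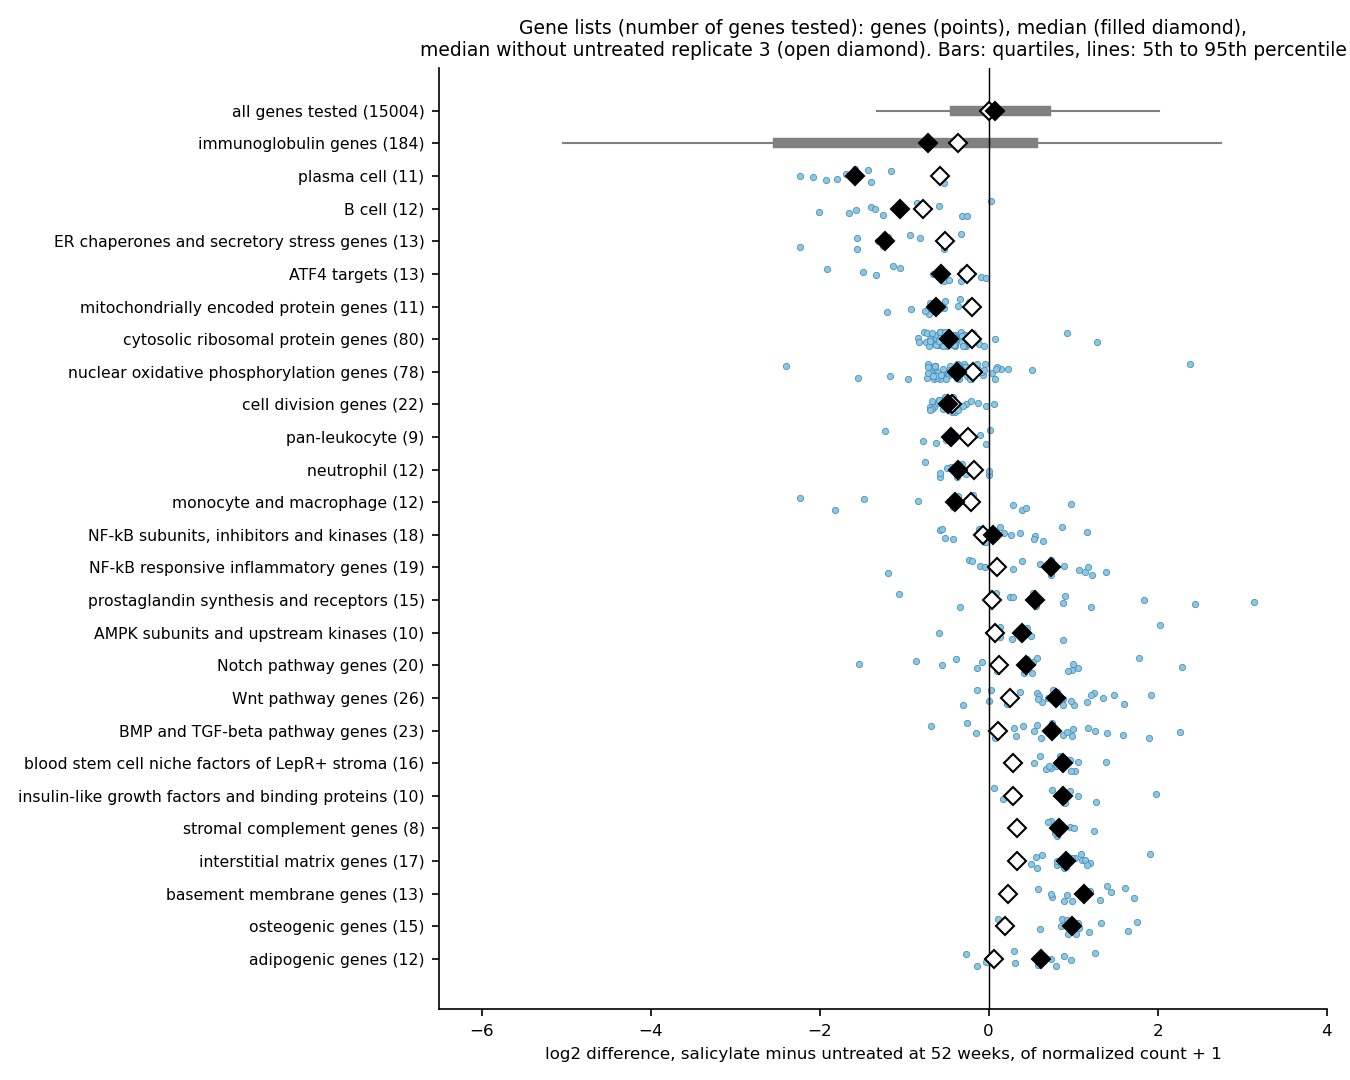
Log2 difference (salicylate minus untreated at 52 weeks) for all genes, the immunoglobulin genes and 25 lists. Blue points are genes, filled diamonds the medians over all 6 libraries, open diamonds the medians without untreated replicate 3, and in the first 2 lines grey bars and thin lines stand for the quartiles and the 5th to 95th percentiles. Open diamonds lie nearer to 0 than filled ones in nearly every list, as for the plasma cell markers with -1.58 and -0.57, whereas the cell division genes keep -0.48 and -0.43.

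Apart from the lists, the 10 genes of smallest p among those higher in all treated libraries, and the 10 among those lower in all of them, were singled out. They came from the genes whose higher group mean was at least 50 and left out predicted genes. Pard3, a polarity protein of tight junctions and of stem cells that divide asymmetrically, lies at chr8:127063893-127612286, plus strand. It had 152, 162 and 149 normalized counts in the untreated and 374, 394 and 392 in the treated libraries, a ratio of means of 2.51 (log2 difference 1.32, SE 0.23, and 1.30 without untreated replicate 3). The replicates of either group lay close together, and untreated replicate 3 lay beside the other untreated libraries. The young libraries had 503, 510.4 and 529. DESeq2 called it higher (adjusted p = 0.000243, DESeq2), whereas limma gave an adjusted p of 0.496. Tacr1, the receptor for substance P (chr6:82402334-82560104, plus strand), had 10.3, 5.56 and 0 normalized counts in the untreated and 76.8, 59.5 and 96.5 in the treated libraries (log2 difference 4.20, SE 0.86, and 3.16 without untreated replicate 3), against 218, 114 and 110.0 in the young libraries. Its 290 reads over the treated libraries compared with 17 over the untreated ones. Hnmt, which inactivates histamine by methylation, had 188, 251 and 201 normalized counts in the untreated and 449, 452 and 760.0 in the treated libraries (log2 difference 1.34, SE 0.30, and 1.30 without untreated replicate 3). Amotl1, a junction protein that binds YAP, had 574, 489 and 305 normalized counts in the untreated and 952, 863 and 1178 in the treated libraries (log2 difference 1.16, SE 0.26, and 0.90 without untreated replicate 3). Hfe, the hemochromatosis protein that regulates iron uptake, had 263, 313 and 173 normalized counts in the untreated and 494, 522 and 658 in the treated libraries (log2 difference 1.19, SE 0.27, and 0.95 without untreated replicate 3). All of these 5 were called higher by DESeq2. The young means of Hnmt, Amotl1 and Hfe were 497, 1103 and 772, nearer to the treated than to the untreated means.

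Fbxl18, a subunit of a ubiquitin ligase, had 26.6, 11.1 and 8.25 normalized counts in the untreated and 91.6, 86.5 and 84.2 in the treated libraries (log2 difference 2.60, SE 0.59, and 2.27 without untreated replicate 3). Surf1, an assembly factor of cytochrome c oxidase, had 90.8, 113 and 66 normalized counts in the untreated and 236, 223 and 212 in the treated libraries (log2 difference 1.33, SE 0.31, and 1.13 without untreated replicate 3), against 217, 222 and 232 in the young libraries. P3h1, a prolyl hydroxylase that modifies collagen, had 277, 210.2 and 138 normalized counts in the untreated and 481, 417 and 510.4 in the treated libraries (log2 difference 1.22, SE 0.29, and 0.95 without untreated replicate 3). The replicates of these genes lay close together in the treated group. Acss3, an acyl-CoA synthetase of mitochondria, had 156, 101 and 46.8 normalized counts in the untreated and 327, 247 and 349 in the treated libraries (log2 difference 1.74, SE 0.42, and 1.27 without untreated replicate 3), and Glt28d2 had 84.8, 72.3 and 35.8 normalized counts in the untreated and 214, 206 and 221 in the treated libraries (log2 difference 1.81, SE 0.42, and 1.44 without untreated replicate 3).

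Among the lower genes, Abcf3, an ATP-binding protein of the ABCF family, had 319, 352 and 487 normalized counts in the untreated and 108, 156 and 139 in the treated libraries (log2 difference -1.51, SE 0.32, and -1.33 without untreated replicate 3). Syce2, a protein of the synaptonemal complex, had 211, 281 and 162 normalized counts in the untreated and 67.1, 84.2 and 54.4 in the treated libraries (log2 difference -1.64, SE 0.37, and -1.84 without untreated replicate 3). Scfd2, a protein of the Sec1 family, had 203, 174 and 143 normalized counts in the untreated and 63.9, 68 and 50.3 in the treated libraries (log2 difference -1.49, SE 0.37, and -1.62 without untreated replicate 3). In Syce2 and Scfd2 untreated replicate 3 was the lowest of the untreated libraries, so their difference was larger without it. Rfc4, a subunit of the clamp loader of DNA replication, had 361, 275 and 283 normalized counts in the untreated and 103, 165 and 87.3 in the treated libraries (log2 difference -1.40, SE 0.36, and -1.45 without untreated replicate 3). Gne, the entry enzyme of sialic acid synthesis, had 426, 824 and 933 normalized counts in the untreated and 246, 217 and 390.3 in the treated libraries (log2 difference -1.32, SE 0.35, and -1.10 without untreated replicate 3). Cog6, a subunit of a Golgi tethering complex, had 207, 287 and 525 normalized counts in the untreated and 121, 159 and 86.3 in the treated libraries (log2 difference -1.40, SE 0.39, and -1.04 without untreated replicate 3). For these 3 genes the young libraries, with 88.8, 132 and 136 of Rfc4, 279, 212 and 219 of Gne and 145, 154 and 164 of Cog6, lay below the untreated libraries at 52 weeks. Ldoc1l, derived from a retrotransposon, had 55.7, 121 and 189.8 normalized counts in the untreated and 13.6, 3.09 and 11.3 in the treated libraries (log2 difference -3.61, SE 0.79, and -3.21 without untreated replicate 3). Dnajb13, a J-domain protein known from sperm flagella, had 47.1, 171 and 124 normalized counts in the untreated and 21.3, 3.86 and 10.3 in the treated libraries (log2 difference -3.24, SE 0.83, and -3.09 without untreated replicate 3). Fcho1, an early component of clathrin-coated pits, had 184, 70.1 and 250.3 normalized counts in the untreated and 29.7, 34.8 and 36 in the treated libraries (log2 difference -2.12, SE 0.60, and -1.74 without untreated replicate 3). The tenth was Slc7a5, given above with the ATF4 targets.

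**Figure D5:**
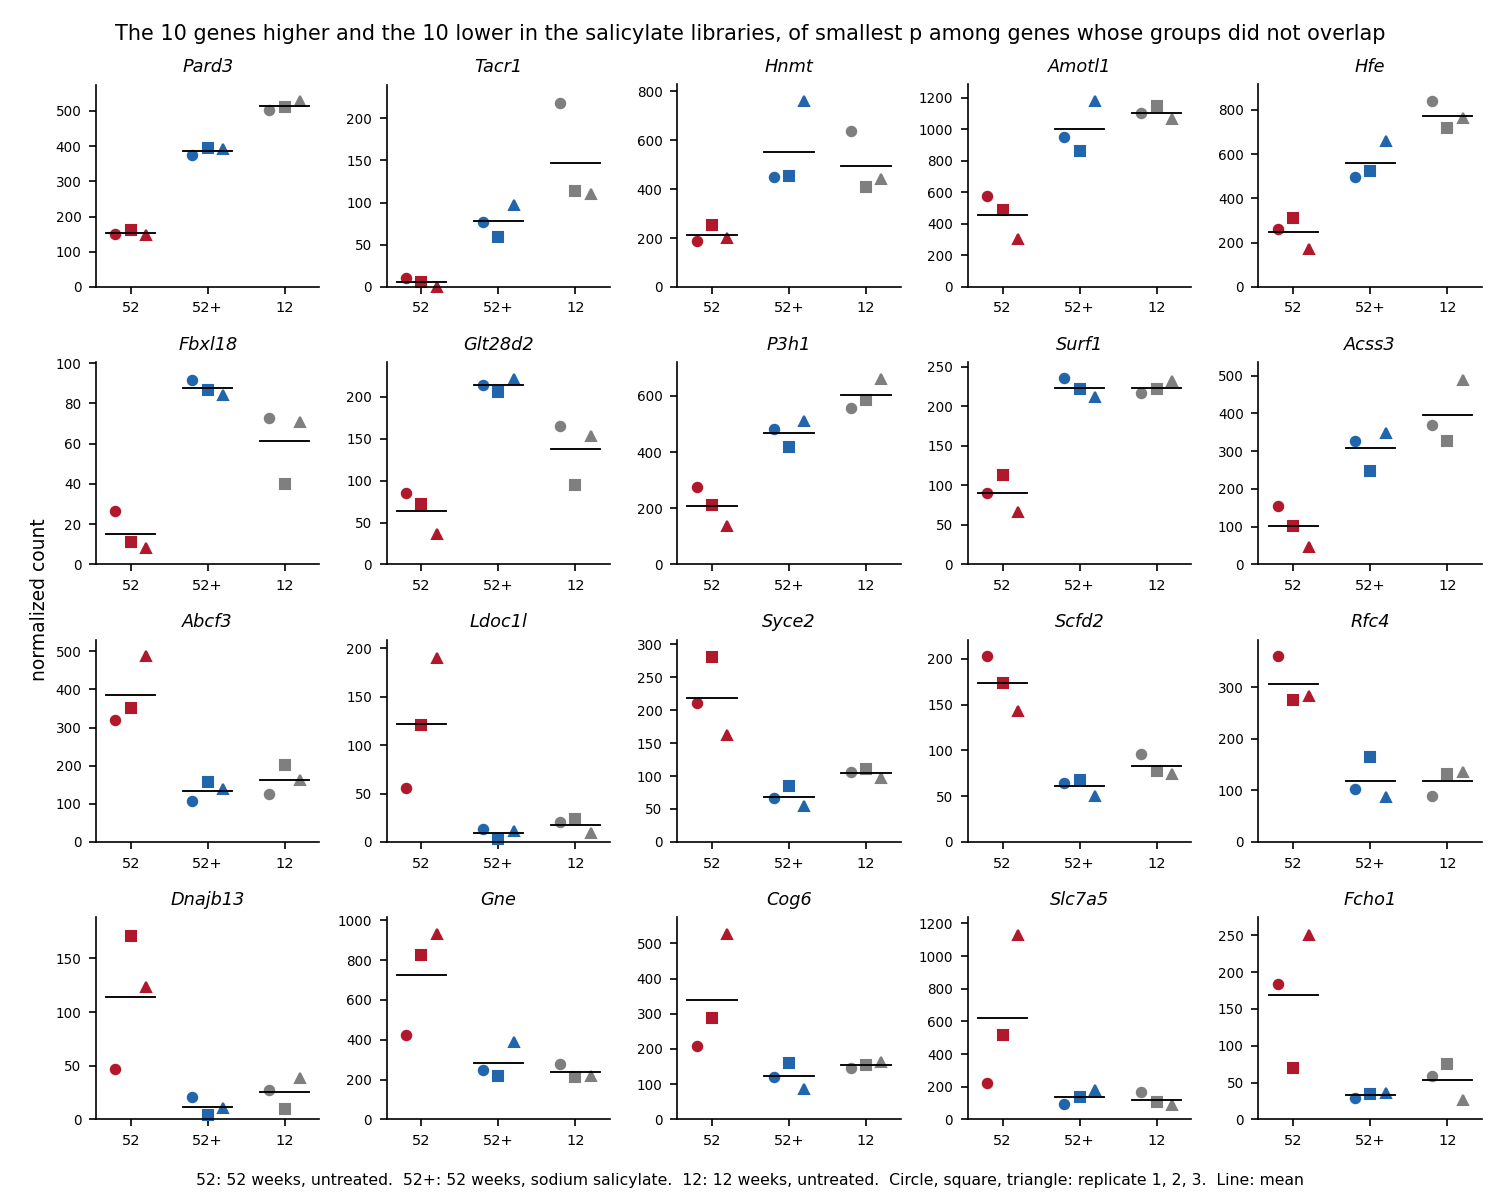
Normalized counts of the 10 higher genes (first 2 lines of plots) and the 10 lower genes (last 2 lines) in the 9 libraries, on linear axes from 0, with the mean of each group as a line. In each plot the 3 treated libraries lie on 1 side of the 3 untreated ones, as in Pard3 with 374 to 394 against 149 to 162.

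DESeq2 called 43 genes, 38 of which separated the groups, and 2 of which were immunoglobulin genes (Igkv4-53 and Ighg3). Of the 5 that overlapped, which include Creld2, Rhox2h had reads in untreated replicate 3 alone. DESeq2 also called genes that the rule above does not name and that were chosen here after their values were seen. Cstad, named for its dependence on T cell activation and cyclosporin A, had no read in the untreated libraries and 73.6, 21.6 and 52.4 normalized counts (193 reads) in the treated ones. The limit that a count of 0 allows is 3 reads per library, which corresponds to 2.57, 3.34 and 8.25 normalized counts in untreated replicates 1, 2 and 3 and covers counting error only. With every untreated library set to its limit, the untreated mean of Cstad was 4.72, and the treated mean of 49.2 was at least 10.4-fold that value. Rpia, an enzyme of the pentose phosphate pathway, had 314, 895 and 2459 normalized counts in the untreated and 229.7, 257 and 299 in the treated libraries (log2 difference -1.76, SE 0.58). Slc7a8, a further transporter of neutral amino acids, had 86.5, 317 and 407 normalized counts in the untreated and 54.2, 48.7 and 54.4 in the treated libraries (log2 difference -2.07, SE 0.62). Dlx4, a homeobox gene, had 3.43, 1.11 and 0 normalized counts in the untreated and 25.8, 19.3 and 32.9 in the treated libraries (log2 difference 3.65, SE 0.82), and the young libraries had 62.2, 41.3 and 66.2. Over all tested genes, 9 had no read in the untreated libraries and a read in every treated one, and 2 had the reverse. These genes met the mean of 10 only through the group in which they were read. Untreated replicate 3 held the fewest reads of the 6 libraries, so these counts measure no difference between the groups.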

How the data were processed

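RNA-seq was performed on 9 libraries of sorted LepR+ cells. The authors demultiplexed reads with bcl2fastq, aligned them to mm10 with STAR, counted them over exons with featureCounts and normalized them with DESeq2; versions, annotation and strandedness are not given in the sources used here. The deposited values are normalized counts, a signal in which each library's reads are divided by 1 size factor. Whole reads were recovered within a tolerance of 0.1 for 99.996% to 100% of values in each library.

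Genes with a mean of at least 10 over the 6 libraries at 52 weeks were tested with limma (version 3.58.1, R 4.3.3) on log2(value + 1), with a trend and with the spread estimated over all 9 libraries, and p values were adjusted by Benjamini-Hochberg over all 15004 genes at 0.05. EdgeR (4.0.16) and DESeq2 (1.42.0) on recovered reads, other scalings, pseudocounts and filters, and the omission of each library were alternatives. Other steps used Python 3.11.15. The test was checked on simulated data.

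Genes were named by rule: Lepr; in each direction 10 nonoverlapping genes of smallest p with a higher group mean of at least 50, which stand in for called genes since none was called, predicted genes left out; the 5 immunoglobulin genes with most reads and the 5 of smallest p; per list the member with most reads and up to 3 of smallest p; and the 10 genes with most reads, described only where they are immunoglobulin genes or belong to a list. Ptgs1 and Ptgs2 and the genes named as chosen after their values were seen stand outside this rule. Not every gene that the rule names is described. Atp5b, the nuclear oxidative phosphorylation gene with most reads, was left out and differed by 0.15, against the direction of its list. The osteoclast, fibroblast and Schwann cell markers were also left out. Members and lists were chosen with earlier results of these data known.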

Additional observations from a re-analysis of the deposited data

How the results depend on the processing

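Limma called 0 genes in every setting except 2. Without the trend it called 1 other gene higher, and with scaling to the niche genes and without untreated replicate 3 it called 1 immunoglobulin gene higher. DESeq2 called 17 other genes higher, 24 other genes lower and 2 immunoglobulin genes lower, and on the 6 libraries alone 3 and 11 other genes higher and lower, and 1 and 4 immunoglobulin genes. The count of genes higher without overlap (1206) was 301 with scaling to the niche genes and 2445 with scaling to total reads, and the count lower (899) was 2718 and 237. Leaving out 1 library, which leaves 3 against 2, gave 1734 to 2987 higher and 1387 to 2486 lower. The smallest adjusted p of limma was 0.0504 without untreated replicate 3 and 0.0925 without untreated replicate 1, and genes at an unadjusted p under 0.05 numbered 1041 and 3443. On the 6 libraries alone, without the young ones, it was 0.669, and these genes numbered 761, against 1465 with all 9 libraries. The difference in immunoglobulin share ranged from -20.8 to -6.08 percentage points on leaving out 1 library.

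The sources used here do not say whether replicate numbers pair the libraries. Deviations of same-numbered treated and untreated libraries correlated at 0.080, 0.051 and 0.121. Each library correlated best with its own number, a hint from the data and not from the design. With the replicate block limma called 0 genes, with 1540 at an unadjusted p under 0.05.

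Of the genes named with values, 113 kept the sign of their difference (under other scalings, relative to the median of all genes) under the 28 alternatives and 10 did not. On leaving out 1 library, the log2 differences ranged from -0.40 to 0.83 in Cxcl10, -0.023 to 0.41 in Hspa8, -1.44 to 0.23 in Jchain, -0.11 to 1.08 in Nfkbiz and -0.66 to 0.11 in Pdia6, with the sign turned only without untreated replicate 3. They ranged from -0.61 to 0.70 in Ptgs2, which turned without untreated replicate 3 or treated replicate 2 (-0.27), and from -0.65 to 0.065 in Mki67, which turned without treated replicate 3. With edgeR and without untreated replicate 3, Comp (-0.032), Cxcl10 (-0.39), Igkv16-104 (1.31), Jchain (0.79), Nfkbiz (-0.12), Pdia6 (0.10) and Ptgs2 (-0.38) turned. With scaling to the niche genes and without it, Cxcl10 (-0.33), Jchain (0.29), Nfkbiz (-0.046), Pdia6 (0.17), Ptgs1 (0.021) and Ptgs2 (-0.54) turned. The cause was not tested. At the depth of untreated replicate 3 a count of 0 allows up to 8.25 normalized counts.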

Other observations

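Genes of cellular senescence and cell cycle inhibition had 6 of 11 differences below 0, with a median of -0.42, or -0.28 without untreated replicate 3. Of these 11, 2 were lower without overlap, against 5.99% of all genes. MHC class II genes, which present antigen, had 3 of 6 below 0 (median -0.13, or -0.37), and MHC class I genes 7 of 10 (median -0.27, or -0.02). Circadian clock genes had 12 of 16 above 0 (median 0.41, or 0.17), and genes of fatty acid oxidation and uncoupling 11 of 14 (median 0.45, or 0.14). Surface markers of skeletal stem and progenitor cells had 9 of 12 above 0 (median 0.45, or 0.18). Ly6a was among those below 0 (-2.29, or -1.38). Interferon response genes and immediate early genes had medians of 0.23 and 0.33, which were -0.22 and -0.08 without untreated replicate 3. Limma called 0 genes of these lists, as it called 0 of all genes tested. The median difference over all genes was 0.07.

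Myl2 and Actc1, contractile proteins of heart muscle chosen after their values were seen, had no read in the untreated libraries and were read in every treated library, almost only in treated replicate 3 with 215 and 349 normalized counts.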
